A study of Mus musculus with 8 samples.

Results

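The oxidative phosphorylation genes of the mouse prostate were followed from normal tissue (WT) through prostatic intraepithelial neoplasia (PIN) to prostatic adenocarcinoma (PCa) in 8 bulk RNA-seq libraries. Members were all genes of the count table whose symbols begin with *Nduf*, *Uqcr*, *Cox4* to *Cox8* or *Atp5*, the genes *Sdha* to *Sdhd*, and the mitochondria-coded *mt-Nd*, *mt-Co*, *mt-Cytb* and *mt-Atp* genes, with 1 pseudogene left out. This gave 103 of 27036 genes, 90 of them coded in the nucleus and 13 in the mitochondrion. The 3 WT prostates came from *R26* mTmG/+:*Osr1* Cre/+ mice. The authors call these matched for age and sex, and do not say whether to PIN, to PCa or to both. They describe the PIN and PCa tissues as made up mostly of atypical or tumor cells under the microscope. The 3 PIN and 2 PCa tissues carried, in place of the wild-type *R26* allele, a floxed transgene for the human androgen receptor (*R26* mTmG/hAR:*Osr1* Cre/+), which Cre made from the *Osr1* locus switches on. All groups therefore carried Cre and the mTmG reporter, on a mixed C57BL/6 and 129S1/SvImJ background, and the ages behind these libraries were not given in the sources used here.

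Oxidative phosphorylation is carried out by 5 complexes of the inner mitochondrial membrane. Complexes I and II feed electrons from NADH and succinate to ubiquinone, complex III passes them to cytochrome c, complex IV reduces oxygen, and complex V uses the proton gradient to make ATP. Complex II alone has no mitochondria-coded subunit, and it is also the succinate dehydrogenase of the tricarboxylic acid cycle. The normal prostate epithelium is known for secreting citrate, with a truncated use of that cycle.

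Each library held 21751803 to 29730420 counts on genes, and these numbers limit the precision of genes with few counts. The labels number the replicates and say nothing of litters, so p-values measure the spread between these samples, part of which may be technical. The secretory gene 9530053A07Rik took 13.1% to 22.1% of counts in WT and PIN and at most 0.0114% in PCa. Library sizes were therefore adjusted by the trimmed mean of M-values (TMM), and levels are given as CPM, reads scaled to a common TMM-adjusted library size. Some libraries stood apart. WT 1 held 14780 CPM on the 6 seminal vesicle markers, against at most 0.0732 in the other WT libraries, and PCa 1 and PCa 2 held 3730 and 285 CPM, against at most 28.0 in PIN. WT 1 also held 199 CPM on the 4 adipocyte markers, against 1.68 and 7.50 in WT 2 and WT 3. WT 2 had the lowest TMM factor, 0.754, and the highest summed level of the members. PCa 1 and PCa 2 differed from each other, at 604 and 27.4 CPM for basal epithelium markers. For leukocyte markers they stood at 121 and 14.3 CPM, and for fibroblast markers at 581 and 258 CPM. The 8 luminal markers of the prostate summed to 47030 to 88178 CPM in WT and PIN, and to 2288 and 3021 CPM in PCa. They did not move together. In PCa against WT 7 were lower, and the log2 fold changes ran from -11.4 (*Spink3*) to 3.07 (*Fkbp5*). The sums therefore do not show how many luminal cells PCa held. The 6 smooth muscle markers summed to 36.6 and 58.2 CPM in PCa, against 1940 to 5498 in WT and PIN. Proliferation markers ran the other way, with 371 and 471 CPM in PCa against at most 99.9 elsewhere. In bulk tissue, fewer cells of a type and less RNA per cell cannot be told apart, and the part of these markers in the results on PCa was not tested. The library numbers in the labels form 3 series, with all PIN and PCa libraries in the third, so series and condition cannot be told apart against WT.

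The fold changes of most nuclear-coded members lay within a narrow range. Of the 90 nuclear-coded members, 82 had more than 1 CPM in at least 2 libraries and were tested among 14034 genes with edgeR's quasi-likelihood test. Calls needed a Benjamini-Hochberg adjusted p under 0.05 together with a log2 fold change of more than 1 in either direction. In PCa against WT, 60 of the 82 lay within 0.5 of 0 on the log2 scale (73.2%), beside 45.7% of all tested genes. Their 95% intervals lay wholly within 1 of 0 for 49 (59.8%), beside 24.7% of all genes. The median SE was 0.24 for the 82 and 0.40 for all genes. By the same measures mitochondrial ribosomal protein genes stood at 74.7% and 57.3%, and tricarboxylic acid cycle genes at 81.2% and 62.5%. The other mitochondrial gene lists described below stood at 59.1% to 63.3% and 40.9% to 44.4%. The narrow range was thus not particular to the members. The call threshold was passed by 1 nuclear member, *Cox8a*, beside 8.54% of all tested genes, and by 0 of the 10 tested mitochondria-coded members. In PCa against PIN it was passed by 1 nuclear member, *Cox6c*, beside 5.72% of all genes, and by 0 mitochondria-coded members. In PIN against WT it was passed by 0 members and by 0 of all 14034 genes (0%). By DESeq2, 0 nuclear members were called in that comparison, beside 0.278% of all genes. With edgeR 5 were lower and 0 higher at an unadjusted p under 0.05, beside 1.59% and 1.92% of all genes. At that limit 12 were lower and 3 higher in PCa against WT, beside 13.7% and 13.9% of all genes, and 3 lower and 1 higher in PCa against PIN, beside 11.2% and 11.6%. The shares of all genes called moved much between fits, as given in the section on processing.

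**Figure D1:**
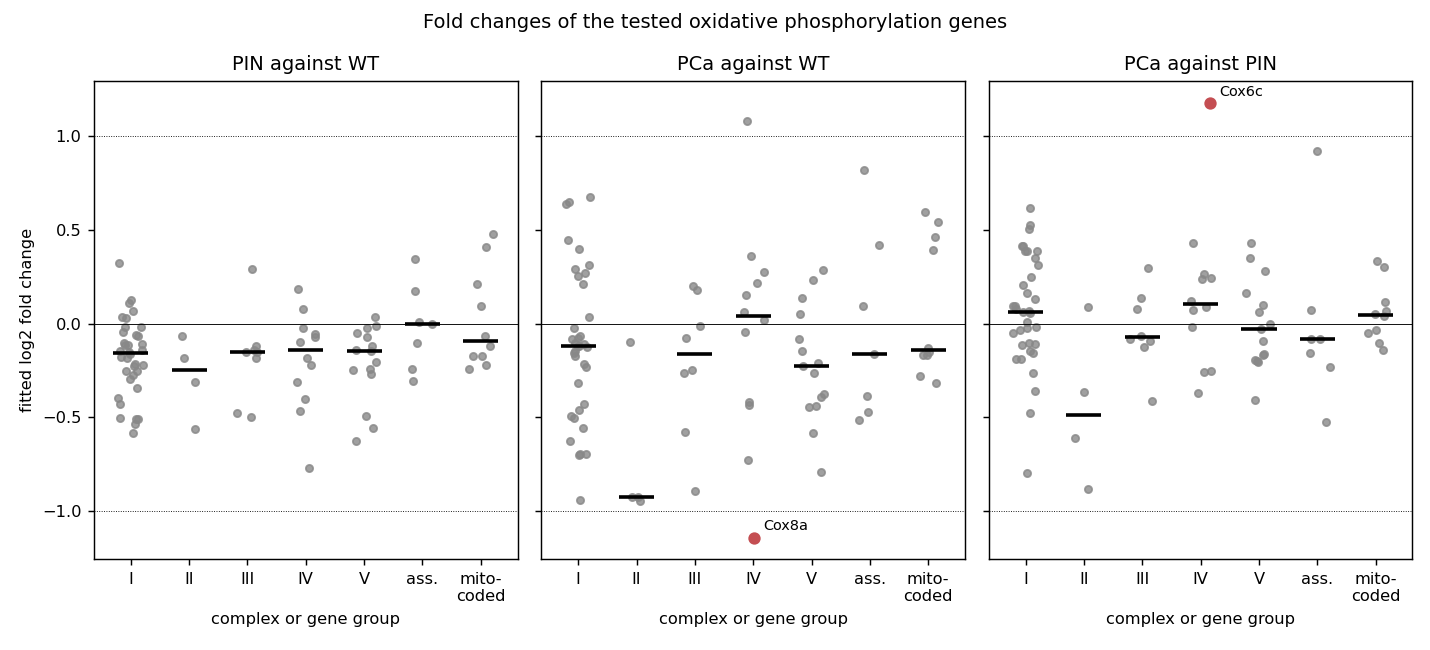
Fitted log2 fold changes of the tested members in each comparison, by complex, with assembly and other genes (ass.) and mitochondria-coded genes apart; each point is a gene, black bars are medians, dotted lines mark a log2 fold change of 1 either way and red points are called genes. All complex II genes but *Sdha* sit near -0.92 in PCa against WT, while the medians of the other groups stay between -0.23 and 0.04.

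The nuclear members leaned lower in PIN and PCa than in WT, by an amount that moved with single libraries. In PIN against WT, 69 of 82 had a negative log2 fold change (84.1%), with a median of -0.15, beside 52.0% and -0.02 for all tested genes. With upper-quartile scaling 57 were negative and the median was -0.08, beside 0.04 for all genes. Without WT 2 the median was -0.03 and 47 were negative, and without PIN 1 it was -0.10 with 63 negative. In PCa against WT, 55 of 82 were negative (67.1%), with a median of -0.13, beside 49.4% and 0.01 for all genes. Without WT 2 the median was 0.01, with 40 negative and 42 positive, beside 0.07 for all genes. Without PCa 1 it was -0.10, with 46 negative and 36 positive, beside -0.08 for all genes. With any library left out, the median lay between -0.24 and -0.03 in PIN against WT and between -0.23 and 0.01 in PCa against WT. In PCa against PIN the members split evenly, 41 lower and 41 higher, with a median of 0.00, beside 45.7% lower among all genes. With any library left out the median lay between -0.02 and 0.10. The latter was without PIN 3, with 32 lower and 50 higher. The groups did not overlap for 25 members lower and 8 higher in PCa than in WT, beside 19.6% and 17.7% of all genes. PIN lay below WT for 11 and above it for 1, beside 6.38% and 6.48%, and PCa lay below PIN for 11 and above it for 13, beside 23.2% and 21.1%.

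Summed over the 90 nuclear members, the level was 6268, 7946 and 6146 CPM in WT 1 to 3. It was 5635, 5812 and 6583 CPM in PIN and 6059 and 6462 CPM in PCa, so the 3 groups overlapped on this scale. As a share of raw counts the same genes took 0.565% to 0.599% in WT, 0.571% to 0.613% in PIN, and 0.800% and 0.771% in PCa. The higher share in PCa therefore belonged to the unadjusted scale. With 9530053A07Rik left out of the total, the shares were 0.716% to 0.748% in WT, 0.657% to 0.742% in PIN, and 0.800% and 0.771% in PCa. On both unadjusted scales PCa lay above WT and PIN, which overlapped with each other.

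**Figure D2:**
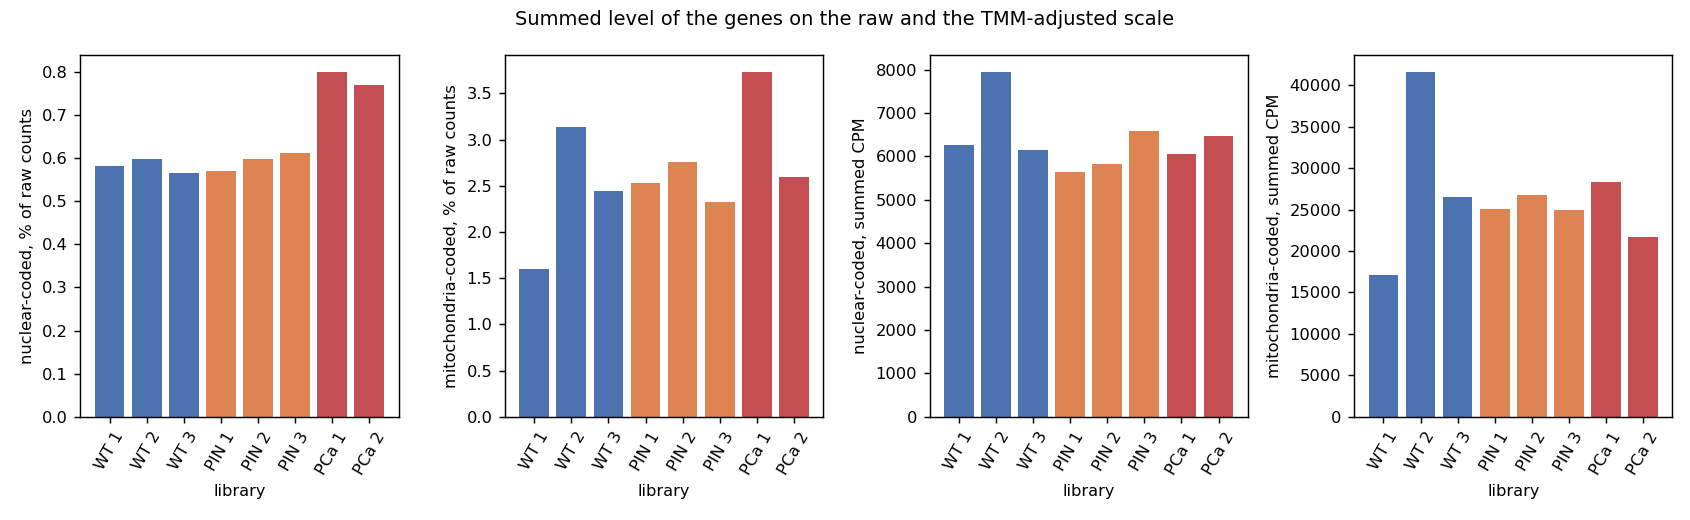
Summed level of the 90 nuclear-coded and the 13 mitochondria-coded members in each library, as a percentage of raw counts (the 2 panels on the left) and in TMM-adjusted CPM (the 2 panels on the right). The nuclear share of raw counts is highest in PCa, while the adjusted sums overlap and peak in WT 2.

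Complex II was the group that stood lowest in PCa. Its median log2 fold change against WT was -0.92 over 4 genes, with those of the other nuclear groups between -0.23 and 0.04. The genes code for the flavoprotein (*Sdha*), the iron-sulfur protein (*Sdhb*) and the membrane anchors that bind ubiquinone (*Sdhc* and *Sdhd*). Complex II as a whole summed to 493, 571 and 481 CPM in WT, 394, 440 and 462 CPM in PIN, and 281 and 441 CPM in PCa. On this adjusted scale all PIN and PCa libraries lay below all WT libraries. As a share of raw counts this did not hold, since PCa 2 then lay above all others. *Sdha* made 267 of the 441 CPM in PCa 2. By edgeR 0 of the 4 genes were called, and 3 were lower in PCa than in WT at an unadjusted p under 0.05, beside 13.7% of all genes.

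*Sdhb* (chromosome 4, 140517118 to 140535108, mm9) had 92.3, 96.5 and 86.4 CPM in WT, 63.8, 73.1 and 84.5 CPM in PIN, and 50.2 and 46.5 CPM in PCa. The 3 groups did not overlap in any pair, with means of 91.7 ± 5.07 (SD, n = 3), 73.8 ± 10.3 (n = 3) and 48.4 ± 2.60 (n = 2). Its log2 fold change in PCa against WT was -0.92 (SE 0.19, adjusted p = 0.0296 by edgeR), which passed the limit on p and not that on fold change. With *Cox8a* this made 2 nuclear members past the limit on p, both lower, beside 4.46% of all genes. The log2 fold change stayed between -0.97 and -0.85 with any library left out, but the limit on p was missed in 6 of these 8 fits, at adjusted p from 0.0551 to 0.0796, without WT 1, WT 3, PCa 2 or any PIN library. It was also missed when WT and PCa were fitted alone (adjusted p = 0.143) and with the replicate number as a block (adjusted p = 0.116). In most of these fits calls fell over all genes as well, as given for *Cox8a* below. Between PIN and WT the log2 fold change was -0.31 (SE 0.17, adjusted p = 1), and in PCa against PIN -0.61 (SE 0.19, adjusted p = 0.107).

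*Sdhc* (chromosome 1, 173057296 to 173080734) had 101, 117 and 99.2 CPM in WT, 52.2, 79.7 and 83.4 CPM in PIN, and 46.8 and 64.7 CPM in PCa. Both PIN and PCa lay below WT, and they overlapped with each other. The log2 fold change was -0.93 in PCa against WT (SE 0.27, adjusted p = 0.073) and -0.56 in PIN against WT (SE 0.23, adjusted p = 1). *Sdhd* (chromosome 9, 50404443 to 50411954) had 92.4, 101 and 90.8 CPM in WT, 83.2, 93.0 and 95.8 CPM in PIN, and 35.4 and 63.1 CPM in PCa. PIN overlapped with WT for this gene, and only the PCa libraries lay below. Its log2 fold change was -0.94 in PCa against WT (SE 0.26, adjusted p = 0.0661), -0.88 in PCa against PIN (SE 0.26, adjusted p = 0.0953) and -0.06 in PIN against WT (SE 0.23). The size rested on which PCa library was kept. Without PCa 1 the log2 fold change was -0.58 against WT and -0.51 against PIN, and without PCa 2 it was -1.40 and -1.33, past both limits. Such fits leave PCa with 1 library, which is assumed to vary like the other groups.

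*Sdha* (chromosome 13, 74459702 to 74487728), the catalytic subunit, had another pattern. It had 207, 256 and 205 CPM in WT, 195, 194 and 198 CPM in PIN, and 149 and 267 CPM in PCa. The PCa libraries enclosed all others, and the log2 fold change was -0.10 in PCa against WT (95% interval -0.74 to 0.54), -0.19 between PIN and WT, and 0.09 between PCa and PIN. The difference between *Sdha* and the other subunits was not tested. The genes for complex II assembly, *Sdhaf1* and *Sdhaf2*, had log2 fold changes of 0.57 (SE 0.27, adjusted p = 0.223) and 0.14 (SE 0.21, adjusted p = 0.705) in PCa against WT.

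**Figure D3:**
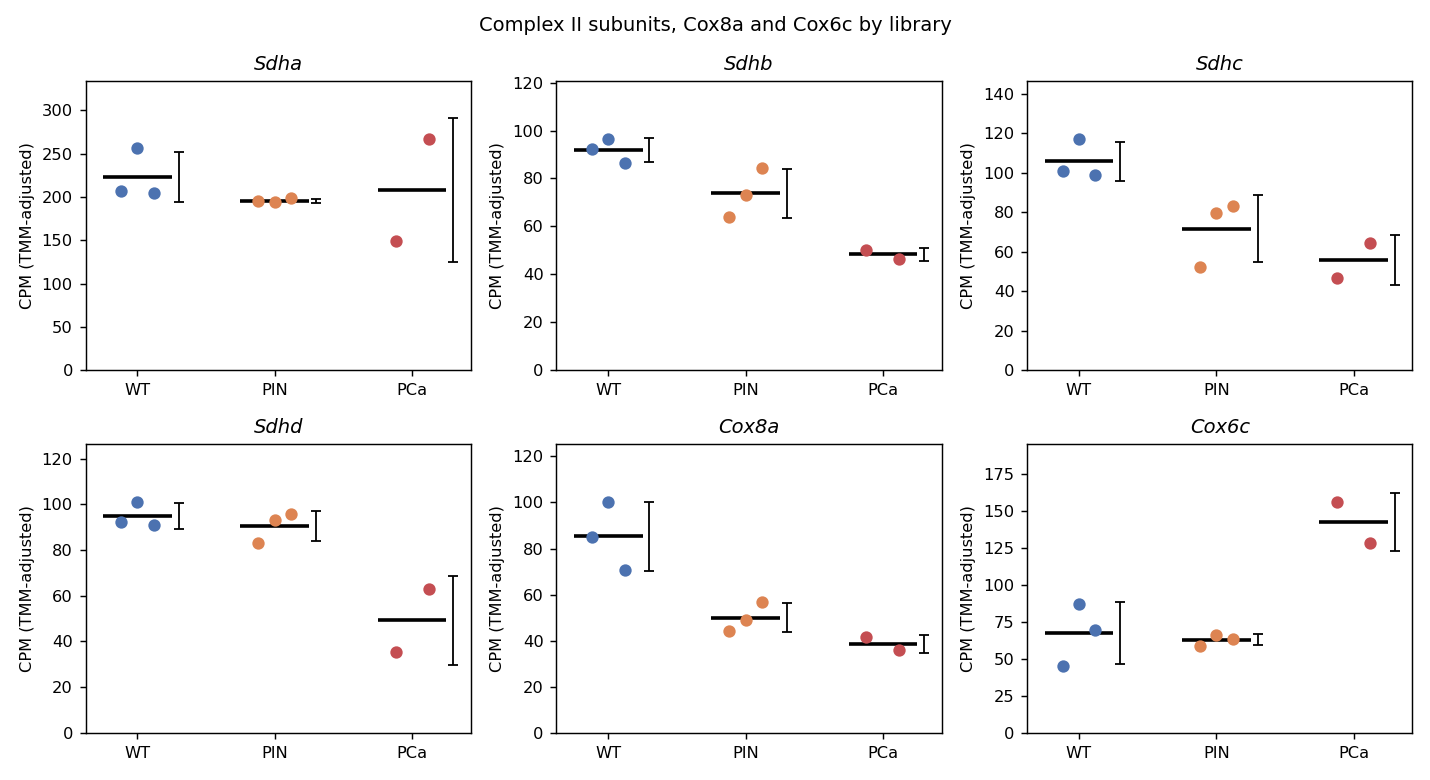
TMM-adjusted CPM of *Sdha*, *Sdhb*, *Sdhc*, *Sdhd*, *Cox8a* and *Cox6c* in each library, with the group mean (line) and SD (bar; n = 3, 3 and 2). *Cox8a* and *Sdhb* step down from WT through PIN to PCa, the PCa libraries of *Sdha* lie at 149 and 267 CPM on either side of all others, and *Cox6c* is higher in PCa alone.

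Promoters are shown for *Sdhb* and *Sdhd*, the complex II genes whose PCa libraries lay below all WT and PIN libraries, and for *Cox8a*, the member called lower in PCa and described further on. The 250 bases upstream of the RefSeq start (GRCm38.p6) are written from 5′ to 3′ in the direction of transcription, and capitals mark the letters of a motif. For *Sdhb* (chr4:140961021-140961270, plus strand) this is GCATGCGC, of the nuclear respiratory factor NRF1, a regulator of respiratory genes. For *Sdhd* (chr9:50603850-50604099, minus strand) it is CTTCCGG, the reverse complement of CCGGAAG, of ETS factors such as GABP. The printed bases of *Cox8a* (chr19:7217617-7217866, minus strand) hold none of the motifs searched. With the first 50 bases after the start added, the windows of *Sdhb* and *Cox8a* hold CCGGAAG on one of the strands.

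Sdhb: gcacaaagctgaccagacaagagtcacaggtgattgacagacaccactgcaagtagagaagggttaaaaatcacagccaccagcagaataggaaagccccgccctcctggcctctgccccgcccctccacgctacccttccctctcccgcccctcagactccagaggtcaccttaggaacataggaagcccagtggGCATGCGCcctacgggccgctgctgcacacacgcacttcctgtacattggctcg

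Sdhd: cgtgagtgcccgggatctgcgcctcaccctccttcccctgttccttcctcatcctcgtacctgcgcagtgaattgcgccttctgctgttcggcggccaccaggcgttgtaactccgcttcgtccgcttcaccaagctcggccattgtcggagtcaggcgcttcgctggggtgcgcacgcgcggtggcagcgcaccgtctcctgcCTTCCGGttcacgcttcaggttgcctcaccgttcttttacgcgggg

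Cox8a: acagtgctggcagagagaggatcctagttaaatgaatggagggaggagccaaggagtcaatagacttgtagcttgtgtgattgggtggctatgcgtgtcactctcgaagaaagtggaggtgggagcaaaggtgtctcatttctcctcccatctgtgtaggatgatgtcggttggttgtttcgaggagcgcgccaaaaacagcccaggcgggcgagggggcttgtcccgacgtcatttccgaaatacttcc

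The promoter of *Sdha* held none of the motifs searched, and *Sdhc* had no entry. Promoter windows reaching from 250 bases before to 50 bases after the start were matched for 74 of the 90 nuclear members, which had 80 windows. On either strand, GCATGCGC was present in 13.8% of these windows, beside 2.71% of all 32817 windows. CCGGAAG was present in 21.2%, beside 8.86%, and AAGATGGCG, of the factor YY1, in 11.2%, beside 1.40%. TATAAA, the TATA box, was present in 8 of the 80, beside 13.6%. A match of letters is a description of the sequence and not a measured binding site.

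Complex IV held both called members, which changed in opposite directions. It had 12 of its 20 members tested, and in PCa against WT 7 were positive and 5 negative, with a median of 0.04. *Cox8a* (chromosome 19, 7289648 to 7292106), the ubiquitous form of a small membrane subunit, had 84.9, 100 and 70.6 CPM in WT, 44.2, 48.8 and 56.8 CPM in PIN, and 41.5 and 35.8 CPM in PCa. The 3 groups did not overlap in any pair, with means of 85.3 ± 14.9 (SD, n = 3), 49.97 ± 6.38 (n = 3) and 38.7 ± 3.99 (n = 2). In PCa it fell by 1.14 on the log2 scale against WT (SE 0.23, adjusted p = 0.0264 by edgeR). Its log2 fold change for PIN over WT was -0.77 (SE 0.20, unadjusted p = 0.00499, adjusted p = 1 by edgeR) and for PCa over PIN -0.37 (SE 0.22, adjusted p = 0.367). The call was lost in 6 of the 8 fits that left out a library, at adjusted p from 0.0525 to 0.0683, without WT 1, WT 3, PCa 2 or any PIN library. It was also lost when WT and PCa were fitted alone (adjusted p = 0.128) and with the replicate number as a block (adjusted p = 0.0946), while the log2 fold change stayed between -1.26 and -1.01 in all these fits. Calls over all genes fell as well, from 8.54% to between 2.48% and 5.20% without WT 1, WT 3 or a PIN library. With WT and PCa fitted alone they fell to 0.952%, and with the block to 2.94%.

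*Cox6c* (chromosome 15, 35855641 to 35868001), another small nuclear-coded subunit, had 45.4, 87.1 and 69.4 CPM in WT, 58.9, 66.2 and 63.4 CPM in PIN, and 156 and 129 CPM in PCa. Both PCa libraries lay above all others, and WT overlapped with PIN. In PCa it rose by 1.18 on the log2 scale against PIN (SE 0.27, adjusted p = 0.0499 by edgeR). Against WT the log2 fold change was 1.08 (SE 0.27, adjusted p = 0.0513), just outside the limit. The call against PIN stood at the limit and was lost in 6 of 8 fits without a library, at adjusted p from 0.0553 to 0.178, without WT 3, any PIN library or either PCa library. It was also lost with scaling on nuclear genes alone (adjusted p = 0.0501), with filterByExpr (adjusted p = 0.0573), without a filter (adjusted p = 0.0734) and with the replicate number as a block (adjusted p = 0.127). The log2 fold change against PIN stayed between 1.05 and 1.34 in the fits without a library and between 1.15 and 1.22 in the others. Calls over all genes fell as well, from 5.72% to between 0.557% and 1.15% without a PIN library. In PIN against WT the log2 fold change was -0.10 (SE 0.25).

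Restricted isoforms of complex IV, which replace common subunits in muscle, brown fat, testis or low oxygen, were near 0 in nearly all libraries, and all 8 untested nuclear members are of this kind. *Cox4i2*, the form known from lung and from low oxygen, was the exception. PCa 2 held 1536 of its counts, or 52.7 CPM, while PCa 1 had 0.225 CPM, WT 0.227 to 0.659 CPM and PIN 0.379 to 0.936 CPM. Passing 1 CPM in a single library, it was not tested. Its partner *Cox4i1*, with the highest mean TPM of the nuclear members in WT (1323 on this per-length scale), had 289, 366 and 255 CPM in WT, 284, 262 and 322 CPM in PIN, and 483 and 297 CPM in PCa. The library with *Cox4i2* was thus the lower of the pair for *Cox4i1*. *Ndufa4l2*, a hypoxia-induced relative of the complex IV subunit *Ndufa4*, had its highest value in PCa 2 as well, 1.10 CPM, against at most 0.482 elsewhere. The 12 hypoxia response genes in the table summed to 1041 CPM in PCa 2, 627 CPM in PCa 1, 688 to 899 CPM in WT and 541 to 626 CPM in PIN. Nearly all of the gap between PCa 2 and PCa 1 came from *Ldha* alone, whose levels are given in the last section. The rest of the list summed to similar levels in both PCa libraries. The 5 endothelial and pericyte markers summed to 165 CPM in PCa 2, 123 CPM in PCa 1, and 14.1 to 108 CPM in WT and PIN. Their part in the level of *Cox4i2* was not tested.

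*Cox8b*, a form of brown fat and muscle, reached 1.43 CPM in WT 1 and at most 0.0453 elsewhere. The brown adipocyte markers moved with it. *Ucp1* had 8.65 CPM in WT 1 and at most 0.0689 elsewhere, and *Cidea* had 4.50 against at most 0.276. The muscle and heart forms *Cox6a2* and *Cox7a1* reached at most 0.0644 and 1.32 CPM, the testis forms *Cox6b2* and *Cox7b2* at most 0.890 and 0.0965 CPM, and *Cox8c* had 0 counts in all 8 libraries. Of the common partners, *Cox8a* fell in PCa, as given above, and *Cox4i1* had a log2 fold change of 0.36 against WT (95% interval -0.30 to 1.03). The others had log2 fold changes of -0.05 for *Cox6a1*, 0.02 for *Cox6b1*, 0.06 for *Cox7a2*, -0.43 for *Cox7b* and 0.27 for *Ndufa4* (SE from 0.21 to 0.34), and 0 of these were called, beside 8.54% of all genes. The interval for *Cox7b* ran from -1.22 to 0.35, and its value was -0.68 without WT 1 and -0.10 without WT 2. *Cox7a2l*, a relative of *Cox7a2* that joins complexes III and IV, had -0.73 (SE 0.30, adjusted p = 0.161), and -0.41 without WT 2.

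**Figure D4:**
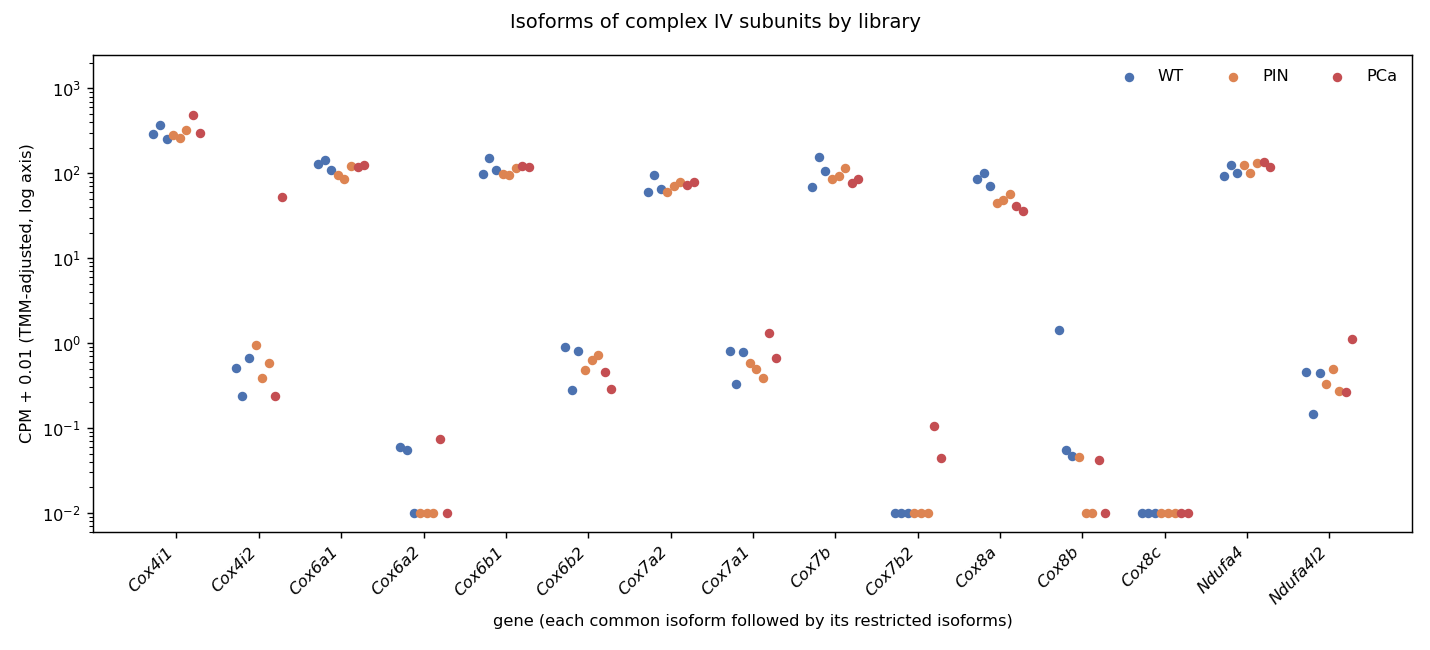
TMM-adjusted CPM plus 0.01 (log axis) of complex IV subunits in each library, each common form followed by its restricted forms. *Cox4i2* stands at 52.7 CPM in PCa 2 and below 1 elsewhere, and *Cox8b* reaches 1.43 CPM in WT 1.

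Complex I, the entry point for NADH, had all 36 nuclear members tested, and 0 were called in any comparison by edgeR, beside 0% of all genes between PIN and WT, 8.54% between PCa and WT, and 5.72% between PCa and PIN. Against WT, PCa had 7 with an unadjusted p under 0.05, 2 higher and 5 lower, while 25 were negative and 11 positive, with a median of -0.12. Beside these stand 13.9% higher and 13.7% lower at that p, and 49.4% negative, among all genes. In this comparison the nuclear members called by DESeq2 were *Cox6c* and *Cox8a* (beside 17.7% of all genes), and by limma-trend these and *Sdhd* (beside 9.43%), so none of complexes I, III and V was called by these tools either. *Ndufs4*, a subunit of the NADH-oxidizing arm, had the highest log2 fold change of the group. It had 35.4, 50.4 and 40.6 CPM in WT, 58.3, 46.2 and 53.8 CPM in PIN, and 66.2 and 68.7 CPM in PCa, so PCa lay above WT and PIN. Over WT this was a log2 fold change of 0.68 (SE 0.21, adjusted p = 0.0891). *Ndufa1*, a small membrane-arm subunit, had the lowest, with 76.8, 142 and 75.2 CPM in WT, 77.9, 87.3 and 101 CPM in PIN, and 48.2 and 53.8 CPM in PCa. Its PCa values lay below all others, at a log2 fold change of -0.94 against WT (SE 0.32, adjusted p = 0.105). Without WT 2, the library at 142 CPM, it was -0.58. The 7 nuclear core subunits, which carry the flavin and the iron-sulfur clusters, had a median of -0.08, with 1 positive and 6 negative.

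Complex III had all 8 members tested, with 0 called by edgeR in PCa against WT, beside 8.54% of all genes. At an unadjusted p under 0.05, 2 were lower, beside 13.7% of all genes, and the median was -0.16. *Uqcrq*, a small subunit beside cytochrome b, was lowest, with 77.4, 73.3 and 56.8 CPM in WT, 39.9, 46.2 and 62.8 CPM in PIN, and 43.0 and 31.4 CPM in PCa. PCa lay below WT and overlapped with PIN, and the log2 fold change against WT was -0.89 (SE 0.28, adjusted p = 0.0874). *Uqcrb*, which binds ubiquinone, was highest at 0.20 (SE 0.30). Complex V had all 15 members tested, with 0 called, 0 at an unadjusted p under 0.05 by edgeR and a median of -0.23, beside the same shares of all genes. *Atp5k*, a subunit of the membrane part, was highest at 0.29 (SE 0.24), and *Atp5g2*, for the proton-carrying c subunit, lowest at -0.79 (SE 0.38, adjusted p = 0.226). Both moved with the PCa libraries, to 0.05 and -0.50 without PCa 1 and to 0.52 and -1.12 without PCa 2. Counts of *Atp5g2*, *Uqcrb* and *Cox7a2l* are uncertain, since these are among 12 nuclear members for which at least 50% of a transcript matched another place in the genome at 97% identity or more. For *Atp5g2* such a match covered 100% of the transcript at 100% identity.

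Among the 7 assembly factors and other genes that the symbols take in, 0 were called by edgeR in PCa against WT and 0 had an unadjusted p under 0.05, beside 8.54% of all genes called and 13.9% higher and 13.7% lower at that p. *Ndufaf4*, which helps to assemble complex I, had 53.3 CPM in PCa 2, against 16.1 in PCa 1, 13.5 to 25.7 in WT and 17.9 to 18.5 in PIN. Its log2 fold change in PCa against WT was 0.82 (SE 0.48, adjusted p = 0.309), and it was 1.45 without PCa 1 (adjusted p = 0.024, past both limits) and -0.27 without PCa 2. In both of these fits PCa is a single library and the spread comes from WT and PIN. The lowest of these genes was *Atp5s*, at -0.51 (SE 0.31), with -0.95 without PCa 1 and -0.16 without PCa 2.

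The 13 mitochondria-coded members fell apart by position on the mitochondrial genome rather than by group. In nuclear chromosome 1 (chr1:24618374-24623027, minus strand, mm9) lies a copy of mitochondrial bases 6390 to 11042, and a search of the genome found it 99.936% identical. Wholly within the copied stretch lie 6 mitochondria-coded genes, namely *mt-Co2*, *mt-Atp8*, *mt-Atp6*, *mt-Co3*, *mt-Nd3* and *mt-Nd4l*. Their counts ran from 1 to 134 per library. *mt-Nd1*, *mt-Nd2*, *mt-Nd5*, *mt-Nd6* and *mt-Cytb* lie wholly outside, with 1347 to 249721 counts. *mt-Co1* and *mt-Nd4*, with 31.3% and 63.6% of their length inside, had 37069 to 207348 counts. Gm10925 and Gm10222, annotated on the chromosome 1 copy itself, had 40 to 247 and 6 to 26 counts.

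The sequences show how close the copy is. The first 60 bases of *mt-Co2* (chrM:7013-7072, plus strand) are identical to chr1:24622345-24622404 (minus strand). The first 60 bases of *mt-Cytb* (chrM:14145-14204, plus strand) are not found in the nuclear genome, and the closest stretch, chr4:79649893-79649952 (plus strand), differs at 3 positions, in capitals.

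mt-Co2: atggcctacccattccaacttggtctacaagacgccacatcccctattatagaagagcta

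chromosome 1 copy: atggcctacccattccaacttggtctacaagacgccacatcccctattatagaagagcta

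mt-Cytb: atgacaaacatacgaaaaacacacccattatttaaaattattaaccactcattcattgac

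closest nuclear stretch: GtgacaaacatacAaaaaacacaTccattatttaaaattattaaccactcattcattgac

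HTSeq in its usual setting does not count a read that fits 2 places equally well, and the setting used was not given in the sources used here. The part of the copy in the low counts was not tested. The summed mitochondrial level below thus stands for the 7 genes with high counts.

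**Figure D5:**
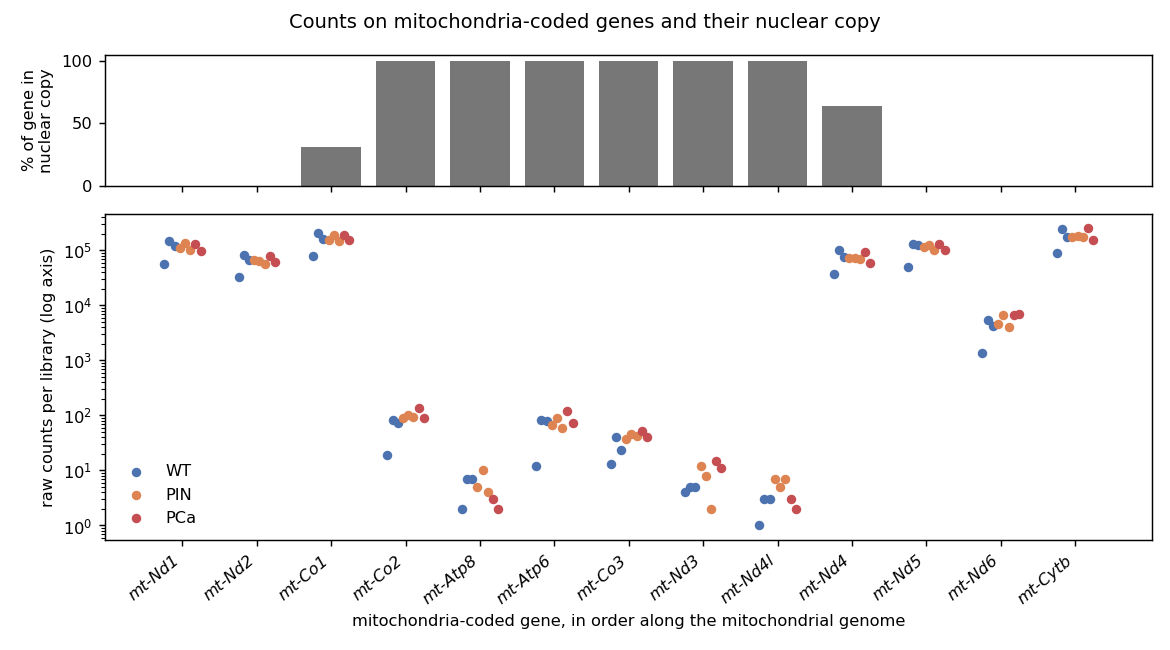
Raw counts of the 13 mitochondria-coded members in each library (lower panel, log axis), in order along the mitochondrial genome, and the percentage of each gene that lies in the chromosome 1 copy (upper panel). The 6 genes wholly inside the copy have at most 134 counts in all 8 libraries, and the 7 others have at least 1347.

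Mitochondria-coded transcripts varied more within WT than between groups. They took 1.60%, 3.14% and 2.44% of raw counts in WT 1 to 3, 2.54%, 2.76% and 2.32% in PIN, and 3.73% and 2.59% in PCa, where PCa 1 lay above all others. With 9530053A07Rik left out of the total, the shares were 2.05%, 3.75% and 3.11% in WT, 2.92%, 3.23% and 2.81% in PIN, and 3.73% and 2.59% in PCa, and WT enclosed the rest. On the adjusted scale they summed to 17153, 41615 and 26562 CPM in WT, 25023, 26799 and 24962 CPM in PIN, and 28263 and 21734 CPM in PCa. The WT range thus enclosed all PIN and PCa libraries. The ratio of mitochondria-coded to nuclear-coded counts was 2.74, 5.24 and 4.32 in WT, 4.44, 4.61 and 3.79 in PIN, and 4.66 and 3.36 in PCa, with the same enclosure.

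No tested mitochondria-coded member was called, and 0 of 10 had an unadjusted p under 0.05 in any comparison by edgeR. Of all genes, 0% were called between PIN and WT, with 1.59% lower and 1.92% higher at that p. Between PCa and WT 8.54% were called, with 13.7% lower and 13.9% higher, and between PCa and PIN 5.72%, with 11.2% lower and 11.6% higher, so a count of 0 among 10 says little. By DESeq2 0 were called as well. *mt-Cytb*, for the cytochrome b of complex III, had 4471, 10989 and 6409 CPM in WT, 6359, 6333 and 6694 CPM in PIN, and 8036 and 5268 CPM in PCa. *mt-Co1*, for the catalytic core of complex IV, had 3954, 9396 and 5918 CPM in WT, 5555, 6540 and 5636 CPM in PIN, and 6035 and 5385 CPM in PCa. Both genes were lowest in WT 1 and highest in WT 2. The complex I subunit genes *mt-Nd1*, *mt-Nd2*, *mt-Nd4* and *mt-Nd5* had the same lowest and highest library. The tested members had log2 fold changes between -0.24 and 0.48 for PIN over WT, between -0.31 and 0.60 for PCa over WT, and between -0.14 and 0.33 for PCa over PIN. The lowest in PCa against WT was that of *mt-Nd1* and the highest that of *mt-Co2*, at most 134 counts per library. The value of *mt-Co2* was 0.21 without WT 1 and 1.02 without WT 2. The 95% intervals reached past 1 in size for all 10 genes against WT and PIN in PCa, such as -1.29 to 1.03 for *mt-Cytb* in PCa against WT, so these libraries do not show whether the levels differed by less than 2-fold. Leaving out WT 2 turned the median from -0.14 to 0.25 for PCa over WT and from -0.09 to 0.25 for PIN over WT, and leaving out WT 1 moved them to -0.39 and -0.37. Without PCa 2 the median for PCa over WT turned to 0.08, with 7 of 10 positive. The median for PCa over PIN, 0.05, was -0.12 without PCa 1 and 0.24 without PCa 2.

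*mt-Nd6* is the single protein-coding gene transcribed from the light strand of the mitochondrial genome. It had 66.6, 245 and 157 CPM in WT, 163, 230 and 150 CPM in PIN, and 213 and 243 CPM in PCa, with a log2 fold change of 0.54 in PCa against WT (SE 0.48, adjusted p = 0.507). This was 0.18 without WT 1 and 1.03 without WT 2. Counted against its heavy-strand neighbour *mt-Nd5*, it stood at 2.75%, 4.12% and 3.44% in WT, 3.94%, 5.26% and 3.89% in PIN, and 5.06% and 7.02% in PCa. PCa lay above WT in this ratio and overlapped with PIN. Whether reads were counted by strand was not given in the sources used here, so reads from *mt-Nd6* and from the opposite strand cannot be told apart.

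Genes around the respiratory chain were described from lists. Of 30 tested respiratory chain genes outside the symbols, such as *Cycs* for cytochrome c, 0 were called by edgeR in each comparison, with 2 higher and 1 lower at an unadjusted p under 0.05 in PCa against WT. For all lists here, 8.54% of all genes were called in this comparison, and 13.9% were higher and 13.7% lower at that p. *Cox17*, a copper carrier for complex IV, was highest in PCa against WT (log2 fold change 0.96, SE 0.28, adjusted p = 0.0713), and *Cox16*, another complex IV assembly gene, lowest at -0.82 (SE 0.68). Of 22 regulators of mitochondrial transcription and biogenesis 0 were called, 1 was higher and 2 were lower at such a p, and the lowest was the coactivator *Ppargc1a*. It had 9.10, 4.40 and 13.4 CPM in WT, 11.5, 5.20 and 4.52 CPM in PIN, and 1.64 and 0.240 CPM in PCa. Both PCa libraries lay below all others, at a log2 fold change of -3.24 against WT (SE 0.94, adjusted p = 0.0727). The highest of these was *Mterfd3*, at 0.92 (SE 0.68). Of 75 tested mitochondrial ribosomal protein genes 0 were called in each comparison, with 5 higher and 7 lower at such a p and a median of -0.08 in PCa against WT, from -0.98 (*Mrps28*) to 1.06 (*Mrps22*).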

How the data were processed

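Bulk RNA-seq of 3 WT, 3 PIN and 2 PCa mouse prostate tissues was used. The authors depleted ribosomal RNA, trimmed paired-end reads with cutadapt 1.9.1, aligned them to mm9 with HISAT2 2.1.0 and counted them with HTSeq 0.6.1, per the labels' processing notes, and the deposited values are raw counts per gene. The deposited exon lengths (another kind of value) served for TPM. Strand setting and annotation were not given in the sources used here.

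The analysis used edgeR 4.0.16 in R 4.3.3, with TMM, genes above 1 CPM in at least 2 libraries, 1 model with 3 groups (5 residual degrees of freedom), the quasi-likelihood F-test with default settings, and Benjamini-Hochberg adjustment over all tested genes. Standard errors came from the fold change and F. The code was tested on simulated data. Total counts were 21751803 to 29730420 per library. Members and lists were chosen with earlier results of these data known. Named were mitochondria-coded members, called members, complex IV isoforms and the highest and lowest member of each complex or list in PCa against WT; *mt-Nd3*, *mt-Nd4l* and *mt-Atp8* were too low to test. Gm10925, Gm10222, *Sdhb*, *Sdhc*, *Sdhaf1*, *Sdhaf2*, *Ucp1*, *Cidea*, *Cycs*, *Ldha* and *Vegfa* were named for context after values were seen. Member coordinates were identical to the NCBIM37 annotation for all 103, and genome matches were searched with blastn 2.17.0. Alternatives were upper-quartile scaling, scaling on nuclear genes, DESeq2 1.42.0, no filter, filterByExpr, limma-trend (limma 3.58.1), a block for replicate number, a fit restricted to the groups compared, no fold change limit, and leaving out each library. Single-cell and human data were not analysed here.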

Additional observations from a re-analysis of the deposited data

How the results depend on the processing

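The 2 PCa libraries and the spread among the WT libraries limit these comparisons. Mitochondria-coded members had 0 calls under all alternatives, and so had all members in PIN against WT. In PCa against WT the count of nuclear members, 1 in the values above, was 2 with upper-quartile scaling, 2 with DESeq2, 3 with limma-trend, 2 without a fold change limit, 0 with only the groups compared and 0 to 2 with a library left out. In PCa against PIN the count, also 1, was 0 with scaling on nuclear genes alone, without a filter and with filterByExpr, and 0 to 1 with a library left out. With the replicate number as a block, the count was 0 in both. Calls over all genes moved as well. In PCa against WT their share was 7.90% with upper-quartile scaling, 17.7% with DESeq2, 9.43% with limma-trend and 0.952% with only the groups compared. With the block it was 2.94%, and 2.48% to 7.30% without a WT or PIN library. In PCa against PIN it was 5.71% with scaling on nuclear genes, 3.12% without a filter and 4.87% with filterByExpr. There it was 1.08% with the block and 0.557% to 7.81% without a WT or PIN library. Deviations of same-numbered libraries correlated at -0.04 to 0.26, and those of differently numbered libraries at -0.26 to 0.17. The deviations of the 2 PCa libraries mirror each other, so these values cannot decide whether the numbers pair the samples. The numbers were not taken to pair them. The cause of these changes was not tested.

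Of 288 refits of single genes that kept all libraries, 277 kept direction and side of the threshold, 6 fell below it, 4 passed it, and *Cox6b1* turned to -0.012 without a filter. Of 288 that left out a library, 258 did. Directions turned on leaving out WT 1, WT 2, WT 3 or a PCa library, and without a PCa library the one left is assumed to vary like the other groups. The log2 fold changes in PCa against WT ran from -0.56 to 0.27 for *Sdha*, -0.028 to 0.45 for *Uqcrb*, -0.27 to 1.45 for *Ndufaf4*, -0.019 to 0.69 for *Cox4i1*, -0.14 to 0.048 for *Cox6a1*, -0.10 to 0.24 for *Cox6b1*, -0.059 to 0.29 for *Cox7a2* and -0.57 to 0.067 for *mt-Nd1*. In PIN against WT *Cox6c* ran from -0.31 to 0.13, and in PCa against PIN *Sdha* from -0.37 to 0.46. Without 9530053A07Rik in the total, the mitochondria-coded share was 2.92%, 3.23% and 2.81% in PIN 1 to 3.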

Other observations

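Outside the respiratory chain, the tricarboxylic acid cycle list held 1 called gene of 16 tested in PCa against WT, beside 8.54% of all genes, and 1 in PCa against PIN, beside 5.72%. *Idh3a*, for the catalytic subunit of the NAD-dependent isocitrate dehydrogenase, had 30.7, 33.4 and 34.9 CPM in WT, 31.9, 26.1 and 30.9 CPM in PIN, and 52.0 and 99.4 CPM in PCa. It rose by 1.20 on the log2 scale against WT (SE 0.28, adjusted p = 0.0408 by edgeR) and by 1.35 against PIN (SE 0.28, adjusted p = 0.0364). The refits of single genes covered members alone. Whether the calls outside the members, here and below, hold under other settings was not tested. The lowest gene of the list was *Ogdh*, of the oxoglutarate dehydrogenase complex, at -0.57 against WT (SE 0.25, adjusted p = 0.196). The median of the list was 0.04 in PCa against WT and -0.15 in PIN against WT, where 0 were called and 0 had an unadjusted p under 0.05 by edgeR.

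Of 18 tested genes for protein import into mitochondria 0 were called in PCa against WT by edgeR, and 2 were higher and 3 lower at an unadjusted p under 0.05, beside 13.9% and 13.7% of all genes. *Tomm22*, a receptor of the outer membrane, had 40.7 to 49.98 CPM in WT, 40.2 to 45.5 CPM in PIN, and 75.7 and 79.6 CPM in PCa. Its log2 fold change against WT was 0.80 (SE 0.18, adjusted p = 0.0353 by edgeR), past the limit on p and not on fold change, and *Timm8b* was lowest at -1.01 (SE 0.38, adjusted p = 0.136). Of 12 tested hypoxia response genes 0 were called in PCa against WT, and 4 were higher and 1 lower at such a p, beside the same shares. In PCa against PIN 1 was called higher, beside 5.72% of all genes, and 5 were higher and 0 lower at such a p, beside 11.6% and 11.2%. The called gene was *Vegfa*, an angiogenic growth factor, with 69.9, 99.8 and 91.0 CPM in WT, 59.2, 95.7 and 85.7 CPM in PIN, and 154 and 210.01 CPM in PCa. Its log2 fold change was 1.18 against PIN (SE 0.27, adjusted p = 0.0497 by edgeR) and 1.07 against WT (SE 0.27, adjusted p = 0.053). In PCa against WT *Ankrd37* was highest at 2.09 (SE 0.61, adjusted p = 0.0741) and *Slc2a1*, a glucose transporter, lowest at -0.99 (SE 0.34, adjusted p = 0.105). *Ldha*, lactate dehydrogenase A, had 336, 408 and 374 CPM in WT, 224, 280 and 247 CPM in PIN, and 72.8 CPM in PCa 1 against 466 in PCa 2. The latter 2 values lay on either side of all other libraries.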
